A study of Mus musculus with 21 samples.

Results

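Zbtb1 ChIP-seq peaks that lay in an exon or at the end of a gene and shared no base with a Cbfa2t3 peak were analysed in mouse lymphoid progenitors (LPs). They were chosen from the Zbtb1 peak list by 2 entries: an annotation that began with exon or with TTS (the transcription termination site), and no base in common with any peak of the Cbfa2t3 list. Of 5898 Zbtb1 peaks, 345 were annotated to an exon and 66 to a gene end. Of these 411 peaks, 82 shared a base with a Cbfa2t3 peak, which left 329 peaks, 280 in exons and 49 at gene ends. Peaks annotated as simple repeats or low complexity were also to be left out, but the entry that names repeats only repeats the annotation for exon and gene end peaks. This step could thus remove no peak and says nothing about repeats in them.

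The cells were an Ebf1-deficient LP line of C57BL6/J origin, kept on OP9 stromal cells with SCF, IL-7 and Flt3L and without Notch stimulation. The lack of Ebf1, a factor needed for the B lineage, was common to every sample, and all samples came from this 1 line. ChIP-seq was done on 2 replicates for Zbtb1 and 2 for Cbfa2t3, with input. QuantSeq, which sequences each mRNA near its 3′ end, was done on 15 libraries of cells with Cas9, sorted days after the introduction of sgRNAs against luciferase (sgControl), Zbtb1, Cbfa2t3, Cbfa2t2 or Lmo2, with 3 libraries per condition.

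Zbtb1 is a transcription factor with a BTB domain, through which such proteins bind each other and corepressors, and with C2H2 zinc fingers that contact DNA. It is needed for the development of T cells. Cbfa2t3 (ETO2) is a corepressor that does not bind DNA itself and is brought to chromatin by partners such as Lmo2, Tal1 and E proteins. Runx factors, which bind DNA with the core letters TGTGGT, are active from the earliest lymphoid stages. A protein-coding exon has to serve both as code and as any site for a factor, and many first exons lie in CpG islands, GC-rich stretches that start in the promoter.

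Runs of the triplet TGG, searched as TGGTGGTGG on both strands, were present in the 200 bases at the centre of 28 of the 329 peaks (8.51%). The stretches below show this repeat in 5 of them, among which Arid1b had the highest score of all 329 and Epb41l4b was the only peak with the repeat whose gene passed the test on RNA described further on. They were read from GRCm38 (mm10) on the strand of the gene, lie in coding sequence, and carry TGGTGGTGG, or CCACCACCA where it is on the other strand, in capitals together with TGTGGT or ACCACA.
Arid1b, first exon, chr17:4995204-4995263, plus strand: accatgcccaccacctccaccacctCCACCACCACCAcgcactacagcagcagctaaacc
Enah, inner exon, chr1:181921880-181921939, minus strand: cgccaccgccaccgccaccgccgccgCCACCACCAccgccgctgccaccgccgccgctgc
Epb41l4b, inner exon, chr4:57019857-57019916, minus strand: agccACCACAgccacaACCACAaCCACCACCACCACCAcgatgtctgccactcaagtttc
Lor, last exon, chr3:92080988-92081047, minus strand: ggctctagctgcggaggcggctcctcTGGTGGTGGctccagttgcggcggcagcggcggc
Ccr10, last exon, chr11:101173915-101173974, minus strand: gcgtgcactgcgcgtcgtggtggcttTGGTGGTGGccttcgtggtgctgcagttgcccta

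The Runx core TGTGGT was present in 92 peaks (28.0%). The 7 stretches below were taken around it from high-scoring inner exon peaks (Atg9a, Akap12), from peaks in genes with lower RNA in the libraries labelled sgZbtb1 (Otof, Pik3ip1, Bod1l), from the highest-scoring peak in a gene of a single exon (Kti12) and from the gene end of Cd3e. The same letters are in capitals, and the Cd3e stretch lies outside its transcript.
Atg9a, inner exon, chr1:75188077-75188106, minus strand: gcagttcctcttTGTGGTtgccttcaccac
Akap12, inner exon, chr10:4355727-4355786, plus strand: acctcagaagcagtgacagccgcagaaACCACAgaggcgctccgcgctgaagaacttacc
Otof, inner exon, chr5:30383086-30383145, minus strand: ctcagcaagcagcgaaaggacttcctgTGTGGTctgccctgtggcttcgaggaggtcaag
Pik3ip1, inner exon, chr11:3332109-3332150, plus strand: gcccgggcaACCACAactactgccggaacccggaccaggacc
Kti12, single exon, chr4:108847962-108848021, plus strand: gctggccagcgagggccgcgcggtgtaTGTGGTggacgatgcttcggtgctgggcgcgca
Bod1l, first exon, chr5:41844077-41844136, minus strand: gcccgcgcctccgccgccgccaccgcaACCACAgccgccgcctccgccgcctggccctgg
Cd3e, gene end, chr9:44998245-44998304, minus strand: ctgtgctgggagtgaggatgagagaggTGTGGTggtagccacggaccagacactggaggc
In Arid1b, Enah and Epb41l4b the repeat read CCACCACCA along the gene, and in Lor and Ccr10 it read TGGTGGTGG. In the Epb41l4b stretch the repeat was preceded by a pair of Runx cores on the opposite strand, separated from it by few bases.

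Most of these peaks sat at the start of a gene, although their annotation was not promoter. HOMER by default counts a promoter only up to 100 bases past the start and lists a peak further inside the first exon as exon. By the exon number in the annotation, 149 peaks were in a first exon, 24 in the only exon of a gene, 73 in an inner exon and 34 in a last exon, and 49 were annotated to a gene end. By position on the RefSeq transcript, the centre fell in coding sequence in 279 peaks, outside the transcript in 46, in a 3′ UTR in 2, in a 5′ UTR in 1 and in a non-coding exon in 1. Of the 329 peaks, 204 (62.0%) had an annotated start within 1000 bases. This held for 144 of the 149 first exon peaks and 19 of the 24 single exon peaks, against 12 of the 73 inner exon peaks and 3 of the 34 last exon peaks. The median distance from the gene's own start was 206 bases in first exons and 8523 bases in inner exons.

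Gene ends were of 2 kinds. Of the 49 gene end peaks, 26 had an annotated start within 1000 bases. In 18 of these the cited transcript itself started further away. For these 18 the list named a neighbouring gene as nearest, except for Coro2a, where it named none. The other 8 peaks were within that distance of the start of the short gene itself. The 49 peaks belonged to 37 protein-coding, 7 microRNA and 5 long non-coding genes, and their centres were between -95 and 978 bases past the end, with a median of 551. The peaks of Mirlet7i, which encodes a let-7 microRNA, Mir2861 and Mir760 lay at 205, 210 and 205 bases from the start of these very short genes and only 121, 129 and 87 bases past their ends. For the Mir2861 peak, the list named Cdk9 as the nearest gene. The peak at the end of Lamb2 was 101 bases from the start of Usp19, and that at the end of 9930012K11Rik was 121 bases from the start of Ccar2. The peaks of H2ac19 and H2ac18 lay 297 and 292 bases from the start of an H3 histone gene. Others were far from any start, such as the peak 867 bases past the end of Elk3, an ETS family repressor, and the peak 379 bases past the end of Cd3e, a chain of the T cell receptor complex. In 66 of the 329 peaks the list named another gene as nearest than that of the cited transcript, and in 12 it named none.

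Scores varied widely and hardly with the place in the gene. The peak score is HOMER's normalized tag number, of which the deposited list holds values of at least 15, and 1 value per peak stands for both replicates, so that no replicate error could be given. The 329 peaks had scores from 15 to 419.4 with a median of 27.9, beside 28.0 over all 5898 peaks, and 144 of them (43.8%) reached 30, beside 46.3% of all. The median was 27.9 in first exons, 28.4 in single exons, 27.5 in inner exons, 25.6 in last exons and 29.1 at gene ends. Zbtb1 peaks without Cbfa2t3 had a median of 31.5 in promoters, 26.1 in introns and 25.4 between genes. The 82 exon and gene end peaks that were left out for their overlap with Cbfa2t3 had a median of 35.5. The highest score in the whole list, 29791.9, was in an intergenic peak. These scores come from the lists that chose the peaks and are given as a description.

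**Figure D1:**
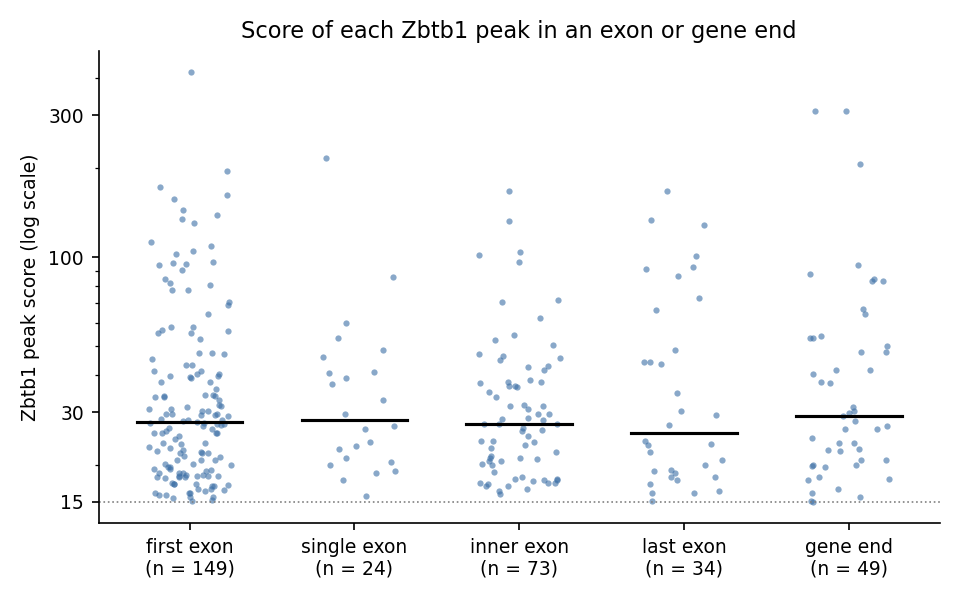
Score of each of the 329 Zbtb1 peaks (log scale), by place in the gene, with 1 point per peak, a bar at the median and a dotted line at the lowest score in the list, 15. The medians lie between 25.6 and 29.1, and every class reaches from near 15 to above 160.

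Named peaks with the highest scores came from all classes. The highest, 419.4, was in exon 1 of Arid1b, a subunit of the BAF chromatin remodelling complex, at 147 bases from the start. Equal scores of 311.0 were given to the ends of H2ac19 and H2ac18, a pair of H2A histone genes, at 949 and 940 bases past the end. The peak in Kti12, which acts in tRNA modification, scored 215.2 in its only exon, and the peak past the end of Elk3 scored 205.1. First exon peaks followed in Bod1l (194.3), whose product protects stalled replication forks, and in Aspscr1 (172.2), which tethers a glucose transporter. The last exon of Lor (loricrin, a skin protein) scored 167.5, exon 6 of 16 of Atg9a (an autophagy membrane protein) 166.7 and the first exon of Hoxa10 162.3. Among inner exons, Atg9a was followed by Akap12 (132.2), a scaffold for protein kinase A, Enah (104.0), an actin regulator, Dab2ip (101.9), a Ras GTPase activator, and Slbp (96.1), which binds the stem-loop of histone mRNAs. At gene ends, BC024139 (93.7) and 9930012K11Rik (87.6) came after the H2A genes and Elk3.

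The shape of the peaks differed little between classes. The focus ratio, the fraction of tags on the side of the peak centre where a point source would put them, had a median of 0.796 in the 329 peaks, with an interquartile range from 0.742 to 0.847. It was 0.814 in the other 5569 Zbtb1 peaks, 0.787 in promoters and 0.832 in introns without Cbfa2t3. Within the 329 it was 0.778 in first exons, 0.822 in inner exons and 0.840 at gene ends. The peak lists hold no tag total per library, so that no counting interval could be given for a single score or ratio.

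The median G + C content was higher in the peaks near a start than in the rest. The median G + C content of the 200 bases at the peak centre was 70.0% over the 329 peaks, against 46.5% in windows 5 kb to each side, 59.5% in all Zbtb1 peaks and 49.5% at the centres of all RefSeq mRNA exons after the first. It was 72.0% in the 204 peaks near a start, the same as in Zbtb1 promoter peaks without Cbfa2t3, and 63.0% in the 125 peaks further away, between the promoter peaks and the intron peaks (54.0%). CpG dinucleotides followed, with a median of 24 per window near a start, 10 further away, 24 in promoters and 4 in introns. The ranges overlapped almost wholly, from 43.0% to 83.5% near a start and from 40.0% to 81.5% further away. Among genes described below, Bod1l had 80.0% G + C with 27 CpG, and exon 2 of Id2 had 47.0% with 5 CpG.

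**Figure D2:**
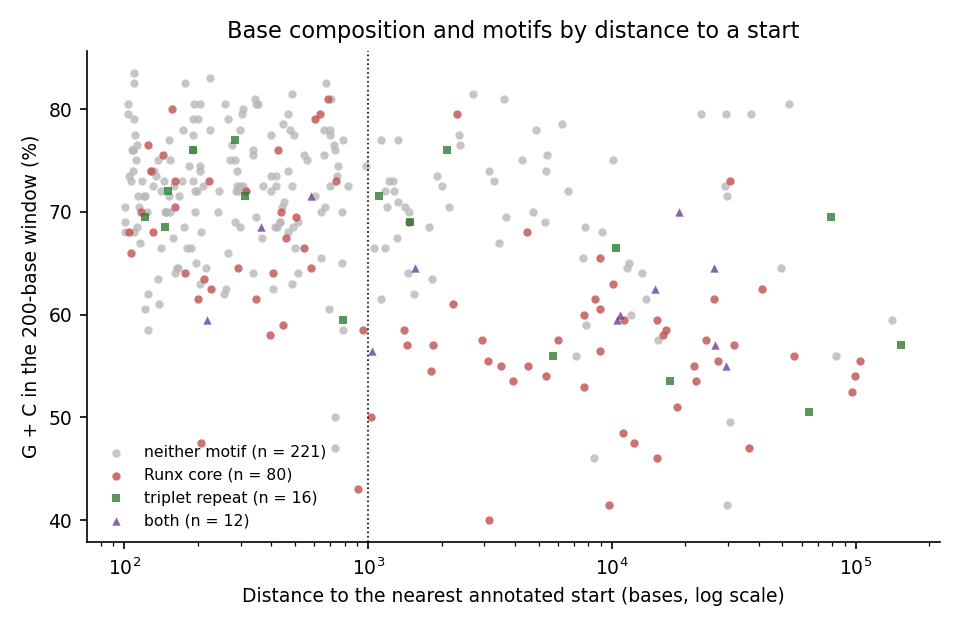
G + C content of the 200-base window (%) against the distance to the nearest annotated start (bases, log scale) for the 329 peaks, with colours for the Runx core, the triplet repeat, both or neither and a dotted line at 1000 bases. Left of the line most peaks are GC-rich with neither motif (160 of 204), and right of it 64 of 125 hold at least 1 of them.

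Runx cores were more frequent away from starts. The core was present in 55 of the 125 peaks over 1000 bases from every start (44.0%) and in 37 of the 204 near one (18.1%). By place, 37 of 73 inner exon peaks held it (50.7%, 95% Wilson interval 39.5 to 61.8), 17 of 49 gene end peaks (34.7%), 9 of 34 last exon peaks (26.5%), 25 of 149 first exon peaks (16.8%, 11.6 to 23.6) and 4 of 24 single exon peaks (16.7%). The intervals cover counting error only. The inner exon share was close to that of Zbtb1 intron peaks (52.5%) and intergenic peaks (56.2%), and the first exon share to that of promoter peaks (13.2%). Windows 5 kb to each side held the core in 15.3%, other exons of the host genes of the exon peaks in 14.7%, all mRNA exons after the first in 14.2%, and windows 200 bases after every mRNA start in 9.19%. These shares describe windows of equal length, 200 bases, and no test over peaks was made.

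The triplet repeat showed the same order. TGGTGGTGG was present in 18 of the 125 peaks far from a start (14.4%) and in 10 of the 204 near one (4.90%). Inner exons had the highest share of the classes (15.1%), followed by gene ends (12.2%), last exons (8.82%) and first exons (5.37%), and 0 of 24 single exon peaks held it. Beside this stand 17.9% of intron, 21.5% of intergenic and 3.15% of promoter peaks without Cbfa2t3, 1.06% of the windows 5 kb away, 0.683% of the other exons of the host genes and 0.773% of all later mRNA exons. The 82 peaks shared with Cbfa2t3 held the repeat in 2.47% and the Runx core in 45.7% of their windows. Both motifs were present in 12 of the 329 peaks, 80 held the Runx core alone, 16 the repeat alone and 221 neither. The letters of the Runx core end in TGGT and can overlap the first bases of the repeat.

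**Figure D3:**
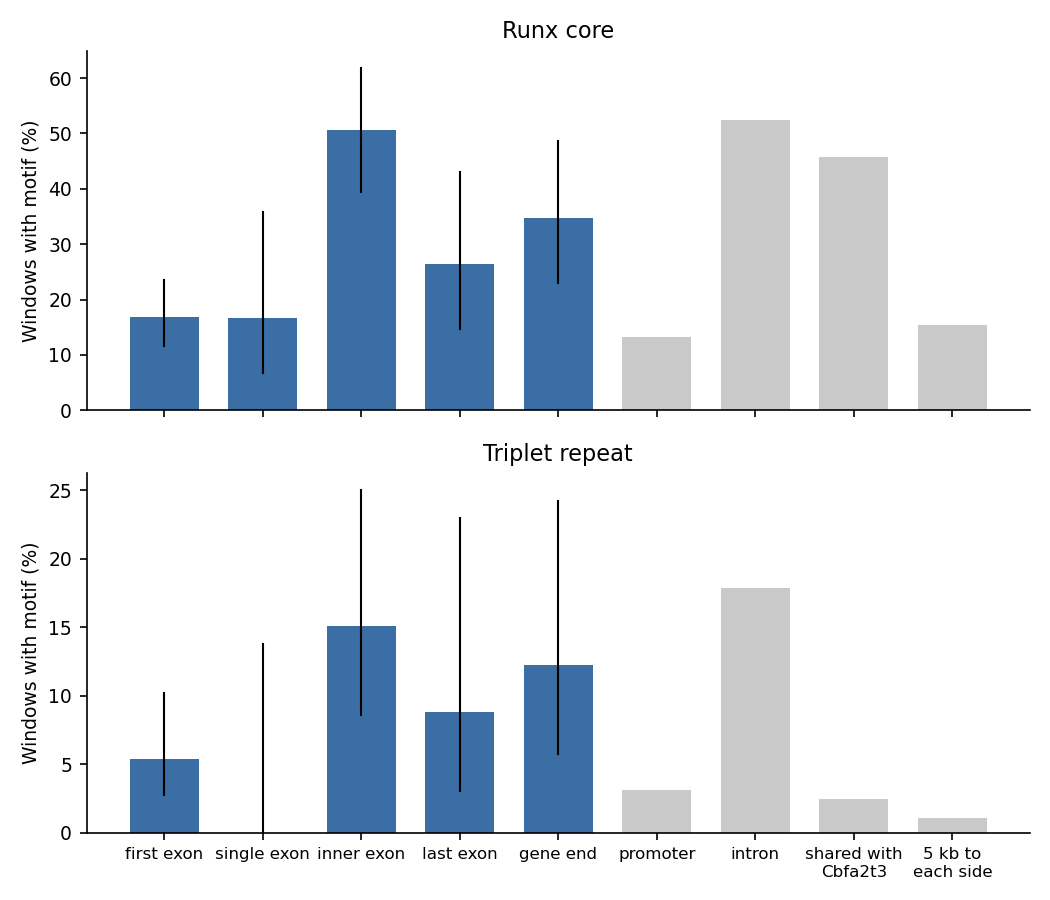
Share of 200-base windows (%) with the Runx core (top) and the triplet repeat (bottom), for the 5 classes of exon and gene end peaks (blue, with 95% Wilson intervals) and for 4 reference sets (grey: Zbtb1 promoter and intron peaks without Cbfa2t3, exon and gene end peaks shared with Cbfa2t3, and windows 5 kb from the 329 peaks). Inner exons are highest of the blue bars in both panels, at 50.7% and 15.1%.

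Far from a start, most of the motifs lay near the peak centres. In the whole peak of 371 bases, 59 of the 125 peaks far from a start held a Runx core, and in 50 of these (84.7%) the core nearest the centre was within 50 bases of it, with a median distance of 17.5 bases. Near a start 44 of 204 held one, 28 of them (63.6%) within 50 bases, with a median of 37 bases. The repeat was within 50 bases of the centre in 17 of the 20 peaks that held it far from a start (85.0%) and in 6 of 12 near one (50.0%). Since the copy nearest the centre was taken, peaks with several copies lean to small distances. The distance expected for a copy placed at random was not computed. The Runx cores around which the stretches above were taken lay at 16.5 (Atg9a), -20.5 (Akap12), 8.5 (Otof), -77.5 (Pik3ip1), -26.5 (Kti12), -51.5 (Bod1l) and -89.5 bases (Cd3e) from the centre.

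**Figure D4:**
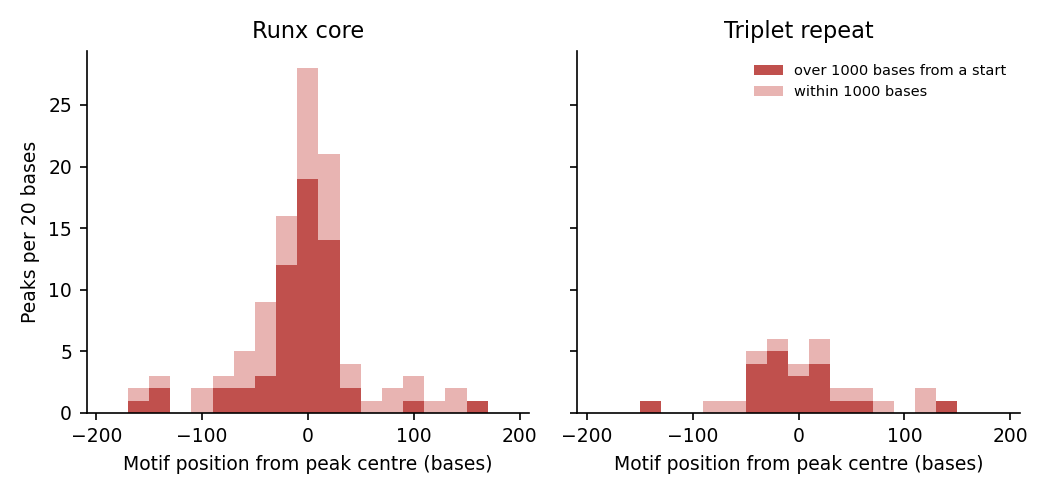
Position of the motif copy nearest the peak centre (bases, 20-base bins) for the Runx core (left) and the triplet repeat (right), with the number of peaks stacked by distance to an annotated start. Both pile up around the centre, with median distances of 17.5 and 19 bases in the peaks over 1000 bases from a start.

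The repeat ran through both code and non-code. All bases of a copy lay in coding sequence in 21 of the 28 genes, with TGG on the strand opposite to the gene in 15 and on the gene's own strand in 6. The longest runs in a peak had 19 triplets past the end of Elk3, 15 past that of Npepps, 13 in exon 4 of Lrrc63, 10 past the end of Scpep1os, 7 in Arid1b, 6 in Nufip2, and 5 each in Cbl, Epb41l4b, Prrt1 and Foxb2, in which the run lay outside the central 200 bases. The 10 highest scores with the repeat belonged to Arid1b, Elk3, Lor, Ccr10 (a chemokine receptor, 127.9), Enah, 9930012K11Rik, Nufip2 (80.5), Phlpp1 (an Akt phosphatase, 72.6), Mir8093 (53.3) and Lrrc63 (45.1). The reference genome marks at least 50% of the bases as repetitive in 7 of the 329 windows, and 5 of these 7, in Arid1b, Elk3, Phlpp1, Npepps and Scpep1os, were among the 28 with the repeat. So repeat masking and the motif moved together in these 5 windows, and its part in their scores was not tested.

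Other motifs were compared with neighbouring sequence in the same way. GGAAGT, an ETS core, was present in 13.7% of the 329 windows and in 12.5% of the windows 5 kb away, and its longer form CCGGAAGT, which contains it, in 1.82% of the 329, in 0 of the 658 windows 5 kb away and in 6.17% of promoter peaks without Cbfa2t3. The E-box CAGGTG was in 18.8% against 17.0% in the windows 5 kb away, and CAGCTG in 16.1% against 10.8%. In the 81 windows of exon and gene end peaks shared with Cbfa2t3 they were present in 32.1% and 38.3%. AGATAA, the core bound by factors of the GATA family, was in 1.82% of the 329 and in 10.6% of the windows 5 kb away. It was in 1.18% of promoter and 5.18% of intron peaks without Cbfa2t3. The median G + C content was 70.0% in the 329, 46.5% in the windows 5 kb away, 72.0% in these promoter peaks and 54.0% in these intron peaks. The part of base composition in these shares was not tested.

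The mapping step bears on a few peaks. Reads of 75 bases that fit up to 10 places were kept by the authors, so the GRCm38 sequence of each peak was searched for stretches of 75 bases with another copy. In 316 of the 329 peaks there was none. In H2ac19, H2ac18, Erdr1 and Zxdb every stretch had another copy, with up to 12 places for the H2A pair, and in H4c17, Krtap5-3 and H3c1 over 50% of the stretches did. The equal scores of the H2A pair thus belong to sequences that reads cannot tell apart.

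Peaks at the edge of the rule were few. Among the 329, the nearest Cbfa2t3 peaks were 4 bases away for Ssc4d (score 23.2), 5 bases for Prrt1 (20.5) and 88 bases for H2ac18, and 24 peaks had a Cbfa2t3 peak within 1000 bases. Among those left out, the smallest overlaps were 128 bases for the peak nearest to Klhl21 (24.8), 155 for Arl6ip1 (102.7) and 164 for Dusp5 (36.9). The first exon peaks closest to the start of the cited transcript were those of Dnajc7, at 42 bases and thus inside the default promoter limit, and of Ccdc138 and Rnaseh2b, both at 101 bases. The lowest scores were 15 in Scpep1os and 15.1 in both Paox and Dlx6os2.

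The RNA of the genes with these peaks was then followed in the 15 QuantSeq libraries, with levels in TPM as named by the authors (CPM, not divided by length). The 329 peaks lay in 328 genes, since Cpeb2 held 2 peaks in its first exon, and all 328 were found in the table. Recovered reads numbered 1705416 to 2095447 per library, so that 3 reads, taken as the floor, were worth 1.43 to 1.76 TPM. Zbtb1 mRNA itself was 62.7, 66.6 and 55.7 TPM in sgControl and 94.4, 113 and 109 TPM in the libraries labelled sgZbtb1, higher by 0.77 ± 0.16 (SE) on the log2 scale (adjusted p = 0.00102). A count of 3′ ends does not show whether the coding sequence was cut, and since the mRNA went up, these libraries are named by their label throughout. Protein was examined in the study by immunoblotting, which was not analysed here. The 8 markers of lymphoid progenitors summed to 1156 to 1348 TPM in sgControl and 1081 to 1186 TPM in the libraries labelled sgZbtb1. In the same order, mean levels were 22.3 and 10.2 TPM for Kit, 476 and 391 TPM for Ptprc, and 156 and 124 TPM for Notch1. They were 231 and 213 TPM for Flt3, 161 and 156 TPM for Il7r, and 18.4 and 16.4 TPM for Lmo2. Means were higher in the libraries labelled sgZbtb1 for Cd44 (98.5 and 130 TPM) and Dntt (78.2 and 94.2 TPM). Cd79a, Ms4a1, Cd8a, Col3a1 and Dcn, which mark B cells, T cells and stroma, were at 0 in all 15. The B cell list of 4 summed to 5.21 to 8.79 TPM in sgControl and 0 to 1.47 TPM in the libraries labelled sgZbtb1, nearly all of it Pax5, the T cell list of 4 to 25.5 to 29.5 against 10.5 to 20.7 TPM, nearly all of it Trac, and the stroma list of 5 to 4.63 to 9.97 against 1.47 to 6.15 TPM, with mean Pdgfrb levels of 7.19 and 2.70 TPM. Their part in the differences below was not tested.

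The levels measured by QuantSeq differed with the place of the peak. In sgControl, 184 of the 328 genes (56.1%) had a mean above 10 TPM, against 8207 of all 55421 genes in the table (14.8%). Only 18602 of these 55421 were above 0 in any library, so that undetected genes lower the 14.8%. This share was 79.7% for first exon peaks, with a median level of 40.1 TPM, 52.1% for inner exons (median 11.6 TPM), 33.3% for single exons (3.87 TPM), 30.6% at gene ends and 14.7% for last exons. Of the gene end genes, 28 of 49 were at 0 in all 3 sgControl libraries, as were 17 of the 34 last exon genes and 9 of the 148 first exon genes. QuantSeq primes on poly(A) tails, which microRNAs and most histone mRNAs of dividing cells lack, and the gene end genes at 0 include the 7 microRNA genes and H2ac19 and H2ac18, so that 0 does not show that these were silent. The highest mean was 1159 TPM for Hspa5, the main chaperone of the endoplasmic reticulum.

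Of the 229 genes with a mean above 1 TPM that could be tested, 15 differed between the libraries labelled sgZbtb1 and sgControl with an adjusted p under 0.05 (limma, 6.55%), beside 4.79% of all 11554 genes tested. Lower were 11 (4.80%, beside 2.94%) and higher 4 (1.75%, beside 1.85%). With an unadjusted p under 0.05 there were 44 (19.2%, beside 17.6%). The median log2 fold change was -0.047 over the 229 genes and -0.028 over all genes. These shares were near the background, and nothing about the genes as a group is read from them. By place, 7 of 135 genes with a first exon peak were called, 7 of 50 with an inner exon peak, 1 of 16 with a single exon peak, and 0 of 10 and 0 of 18 with a last exon or gene end peak. In the last exon and gene end genes 2 and 4 had an unadjusted p under 0.05, and edgeR and DESeq2 called 0 of them as well. Of the 58 tested genes with a Runx core in the peak 5 were called (8.62%), of the 172 without it 10 (5.81%), and of the 18 with TGGTGGTGG 1, Epb41l4b, which edgeR called and DESeq2 did not.

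Among the 11 lower genes, 3 were regulators of transcription. Tcf7l2, a TCF/LEF factor of the Wnt pathway, was 16.3, 4.05 and 13.5 TPM in sgControl and 1.68, 0 and 1.47 TPM in the libraries labelled sgZbtb1, where it was at or under the floor of 3 reads. The groups did not overlap, and the fold change was -2.53 ± 0.47 (log2, SE, n = 3 against 3, adjusted p = 0.000145, limma), which depends on the pseudocount (-3.90 with 0.1 in place of 1). From the summed reads, 6 against 58, the ratio was 0.0901 with an exact 95% interval of 0.0318 to 0.208 for counting alone. Its peak, in exon 3 of 14, scored 20.9 and held neither motif. Runx2, a Runx factor known for bone formation, was 28.5, 37.6 and 55.1 TPM in sgControl and 20.1, 24.4 and 24.1 TPM in the libraries labelled sgZbtb1 (-0.75 ± 0.22, adjusted p = 0.0283). All 3 treated libraries were below the lowest control, but the call was lost without any of 5 of the 6 libraries (all but sgControl 1), with an adjusted p of up to 0.281, and with all genes above 0 in the test (0.0694). Id2, an HLH protein that blocks E proteins, was 134, 183 and 153 TPM against 81.0, 129 and 103 TPM (-0.60 ± 0.13, adjusted p = 0.00183). The highest treated library was just below the lowest control, and the adjusted p rose to 0.0503 without sgControl 2 and 0.0654 without sgZbtb1 1. The peaks of Runx2 (33.1) and Id2 (16.6) held neither motif in the central 200 bases, and that of Id2 had a Runx core further out.

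Another pair of lower genes acts in signalling. Pik3ip1, an inhibitor of PI3 kinase, was 29.6, 41.1 and 49.8 TPM in sgControl and 17.3, 16.7 and 14.7 TPM in the libraries labelled sgZbtb1, with no overlap (-1.23 ± 0.22, adjusted p = 0.000102). Its peak (26.6) lay in exon 3 of 6, where the Runx core shown above was found. Tgfbr1, the type I receptor for TGF-β, was 36.6, 26.05 and 34.6 TPM against 14.0, 12.9 and 15.7 TPM (-1.13 ± 0.27, adjusted p = 0.00505), with a first exon peak (31.3) at 111 bases from the start. Both calls held in all 14 alternatives.

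Otof, the calcium sensor otoferlin of hair cells, was 9.87, 9.26 and 17.6 TPM in sgControl and 1.68, 1.91 and 2.95 TPM in the libraries labelled sgZbtb1, or 63 against 13 reads in all. The difference was -2.03 ± 0.42 (log2, adjusted p = 0.000805), and the ratio of reads was 0.18 with an exact interval of 0.0907 to 0.33. Its peak (17.8) was in exon 23 of 46 with a Runx core 8.5 bases from the centre. Pnmal2, in whose single exon a peak (20.4) was found, was 2.32, 8.68 and 2.93 TPM against 0, 0.478 and 0.491 TPM, which are 24 and 2 reads (ratio 0.0726, exact interval 0.00831 to 0.292). Its adjusted p of 0.0331 was lost without any library except sgControl 1, with values up to 0.238, with all genes above 0 in the test (0.0914) and with a pseudocount of 0.1 (0.0519), so that this call rests on very few reads.

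Epb41l4b, a membrane protein with a FERM domain, joined the repeat and the Runx core in exon 21 of 25 (score 36.4). It was 65.0, 81.6 and 67.4 TPM in sgControl and 34.6, 49.7 and 51.1 TPM in the libraries labelled sgZbtb1, with no overlap (-0.66 ± 0.18, adjusted p = 0.0172). Without sgZbtb1 1 the adjusted p was 0.169, and without sgControl 2 it was 0.125. The call was also lost by DESeq2 (0.0638) and with all genes above 0 in the test (0.0884).

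The other lower genes changed less than these. Bod1l, the only called gene among the 10 highest scores, was 252, 265 and 238 TPM in sgControl and 187, 190.8 and 184 TPM in the libraries labelled sgZbtb1 (-0.42 ± 0.10, adjusted p = 0.00601). The spread within each group was small beside the gap between them, and the call held in all 14 alternatives. Dnajb14, a co-chaperone of the endoplasmic reticulum, was 140.0, 177 and 182 TPM against 107, 124 and 119 TPM (-0.50 ± 0.12, adjusted p = 0.00512, but 0.0628 without sgControl 3). Zfc3h1, which acts with the nuclear RNA exosome, was 85.9, 100.1 and 79.7 TPM against 65.9, 61.7 and 58.4 TPM (-0.50 ± 0.16, adjusted p = 0.0441). The groups were apart in all 3 libraries of each, yet the call of Zfc3h1 was lost without any 1 of the 6 libraries, with an adjusted p of 0.0543 to 0.217, by DESeq2 (0.0768), with other size factors (0.0517) and with all genes above 0 in the test (0.0792).

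The 4 higher genes rose by less than 1 on the log2 scale. Fam98c was 125, 108 and 135 TPM in sgControl and 159.8, 208 and 204 TPM in the libraries labelled sgZbtb1 (0.62 ± 0.13, adjusted p = 0.00123), with a peak (62.4) in exon 3 of 8. Samd1, which binds unmethylated CpG islands, was 54.6, 71.8 and 59.2 TPM against 77.1, 109 and 88.9 TPM (0.55 ± 0.16, adjusted p = 0.0285). The groups of Samd1 were close to each other, and its call was lost without sgControl 1, sgControl 3, sgZbtb1 2 or sgZbtb1 3, with an adjusted p of up to 0.213, by DESeq2 (0.0576) and with all genes above 0 in the test (0.114). Cox6c, a subunit of cytochrome c oxidase, was 594, 622 and 639 TPM against 719.5, 749 and 859 TPM (0.32 ± 0.08, adjusted p = 0.00571, but 0.107 without sgZbtb1 3). Sod1, the cytosolic superoxide dismutase, was 599.9, 609 and 569 TPM against 715, 754 and 755 TPM (0.32 ± 0.08, adjusted p = 0.00595, but 0.051 without sgControl 3). The Cox6c peak (15.9) was in exon 2 of 4 and held a Runx core, and the Sod1 peak (17.2) was in the first exon. For each of the 15 genes an exact two-sided permutation test of its 6 values gave 0.1, the smallest p that 3 libraries against 3 allow.

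**Figure D5:**
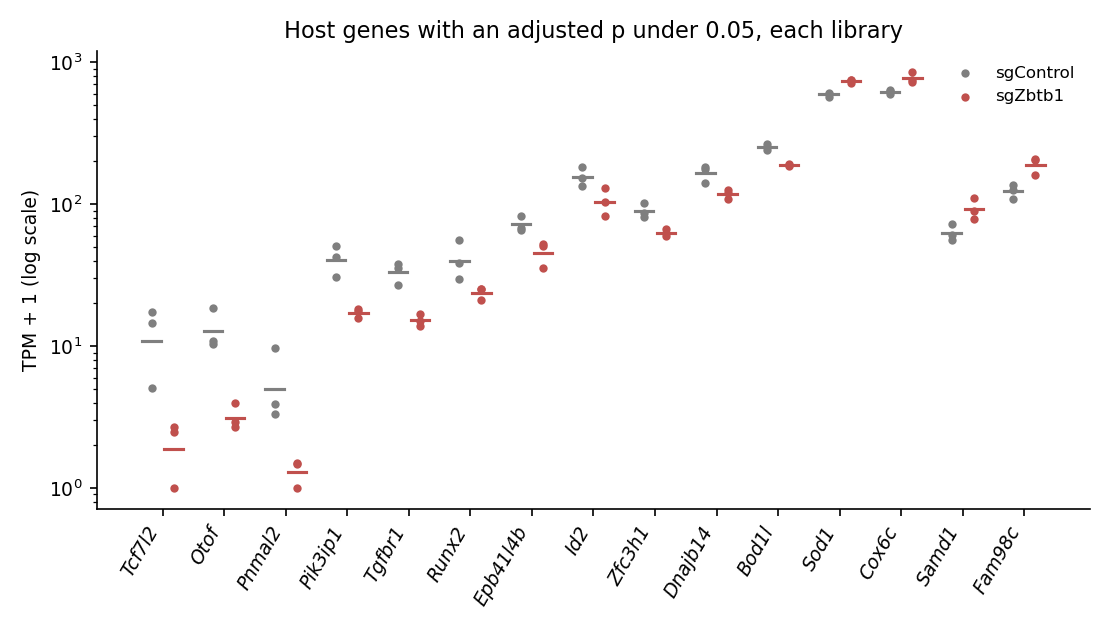
TPM + 1 (log scale) of the 15 genes with an adjusted p under 0.05 in sgControl (grey) and in the libraries labelled sgZbtb1 (red), with 1 point per library and a bar at the mean of the log values, in order of the fold change. Genes run from Tcf7l2 (-2.53) at the left to Fam98c (0.62) at the right, and those with the largest changes are at low levels.

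The genes with the highest scores mostly did not pass the test. Arid1b was 74.9, 76.4 and 89.7 TPM in sgControl and 79.9, 72.2 and 70.7 TPM in the libraries labelled sgZbtb1, with overlapping groups (-0.11 ± 0.14, adjusted p = 0.75). Kti12 was 49.9, 45.7 and 47.5 TPM against 43.0, 54.5 and 47.6 TPM (0.01 ± 0.18, adjusted p = 0.98). Elk3 was 48.2, 52.7 and 38.7 TPM against 79.3, 63.6 and 65.8 TPM (0.57 ± 0.19, adjusted p = 0.0677). The groups of Elk3 did not overlap. Its adjusted p was under 0.05 in 2 of 14 alternatives, with the 6 libraries alone (0.0266) and with the replicate number as a term. Hoxa10 was 144, 149 and 169 TPM against 176, 181 and 178 TPM (0.21 ± 0.11, adjusted p = 0.3). Aspscr1 had a mean of 11.04 TPM in sgControl and an adjusted p of 0.861, and Atg9a a mean of 1.16 TPM and an adjusted p of 0.918. The H2A pair was listed at 0 in all sgControl libraries, as was Lor, so that none of these 3 could be tested. Enah, with the repeat in its peak, was 247, 209.5 and 233 TPM against 184.9, 183 and 198.9 TPM (-0.28 ± 0.10, adjusted p = 0.111).

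By gene family, the peaks were spread thinly. Of 8 zinc finger genes (Klf1, Zbtb10, Zbtb12, Zfp174, Zfp598, Zfp652, Zfp697 and Zfp786, scores 19.7 to 133.6), 4 could be tested and 0 were called by limma, edgeR or DESeq2, with 1 at an unadjusted p under 0.05, beside 2 higher and 8 lower of the 339 zinc finger genes tested, peaks aside. Zfp652 was 81.9, 90.3 and 85.0 TPM in sgControl and 62.6, 64.1 and 71.7 TPM in the libraries labelled sgZbtb1 (-0.37 ± 0.15, adjusted p = 0.131). Of 6 histone genes (H2ac18, H2ac19, H3c1, H4c17, H4c6 and H4f16, median score 62.5), 3 could be tested and 0 were called by limma, edgeR or DESeq2, with 1 at an unadjusted p under 0.05, and limma called 0 of the 62 histone genes tested, with 7 at an unadjusted p under 0.05. Splicing and RNA-binding genes were Srsf1 and Ddx19a, ribosomal ones Mrpl58 alone and collagens Col14a1 alone, with 0 calls by limma among the 3 that could be tested (1 at an unadjusted p under 0.05, Srsf1, which DESeq2 called and edgeR did not), and 7 microRNA genes could not be tested. Of the genes of T-lineage and progenitor cells listed for the analysis, Cd3e, Runx2 and Id2 had such a peak. Runx2 and Id2 were among the lower genes above, beside 9 lower and 3 higher of the 52 genes of that list tested, peaks aside. Cd3e (score 24.5) was listed at 0 in 14 of the 15 libraries.

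In the other 3 conditions 1 gene was called, and it was the same gene in each. Selenot, a selenoprotein of the endoplasmic reticulum with a first exon peak (16.6) at 138 bases from the start, was 56.9, 55.0 and 65.1 TPM in sgControl. It was 92.2, 95.9 and 82.0 TPM in sgCbfa2t3 (0.60 ± 0.14, adjusted p = 0.025), 85.7, 113 and 99.98 TPM in sgCbfa2t2 (0.74 ± 0.14, adjusted p = 0.00639) and 85.9, 105 and 104 TPM in sgLmo2 (0.72 ± 0.14, adjusted p = 0.0278). In the libraries labelled sgZbtb1 it was 78.8, 68.4 and 87.9 TPM (0.40 ± 0.14, adjusted p = 0.0942). All 4 comparisons use the same 3 sgControl libraries, in which Selenot was lower than in each of the other 12, so that they are not independent. With the 6 libraries of a comparison alone, the adjusted p was 0.0511 for sgCbfa2t3, 0.017 for sgCbfa2t2 and 0.0831 for sgLmo2. Without sgControl 2 the adjusted p was 0.144, 0.0881 and 0.283 for sgCbfa2t3, sgCbfa2t2 and sgLmo2. With all genes above 0 in the test it was 0.0779, 0.0846 and 0.0822 in the same order. For sgLmo2 it was 0.0744 by DESeq2 and 0.0512 by edgeR. The call in sgCbfa2t3 was also lost without sgControl 1 (0.0865), sgCbfa2t3 1 (0.137) or sgCbfa2t3 2 (0.125), that in sgCbfa2t2 without sgCbfa2t2 2 (0.248), and that in sgLmo2 without sgControl 1 (0.149), sgLmo2 2 (0.188) or sgLmo2 3 (0.181). Thus 1 of 229 tested genes (0.437%) was called in each, beside 0.537% of all genes tested in sgCbfa2t3, 0.147% of them for Cbfa2t2 and 0.0173% for Lmo2. In the same order, the median log2 fold changes over the 229 genes were -0.037, 0.0005 and -0.016, against -0.010, 0.0049 and 0.013 over all genes.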

How the data were processed

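Zbtb1 and Cbfa2t3 ChIP-seq peaks (2 replicates each) and QuantSeq levels (15 libraries, 3 per condition) were used. The authors mapped ChIP reads to mm10 with Bowtie 1.1.1 and deposited 1 HOMER list per factor, with a peak score of at least 15 and a focus ratio (a fraction) for each reproducible peak. For QuantSeq, the authors used fastp and STAR and deposited values named TPM, which are CPM: every value (100%) came to a whole number of reads within 0.05 reads. A row without an identifier, holding 1 read, was left out.

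The members, gene lists and motifs were chosen with earlier results of these data known. Genes came from the cited transcript in 326 peaks and from the position in 3, with RefSeq GRCm38. Genes named are the 10 highest scores, the 5 highest in exons and the 5 highest at ends, up to 10 with TGGTGGTGG, those of the T-lineage list, and up to 10 called in each direction (Bod1l, the 11th lower gene, is among the highest scores). The highest inner exon peaks, and examples of an edge, a class or a repeated sequence, were named after their values were seen.

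Genes with a mean above 1 TPM (11554) were tested with limma 3.58.1 (R 4.3.3, moderated with an intensity trend) after adding 1 TPM and taking log2, fitting the 15 libraries together, with Benjamini-Hochberg adjustment over all genes. Fold changes on this scale understate those of low genes. On simulated data 200 of 200 changed genes were recovered, with 5 false calls. Recovery of changes as small, or in genes as low, as many of those named here was not tested. The plan assumed TPM and was kept for CPM. The study describes the 3 libraries of a condition as biological replicates. The p-values rest on the spread between libraries within a condition, pooled over all 15 and moderated across genes. All libraries came from 1 cell line, so the p-values cover no spread between lines or animals. Alternatives included edgeR 4.0.16, DESeq2 1.42.0 and leaving out each library.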

Additional observations from a re-analysis of the deposited data

How the results depend on the processing

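The count of 15 genes called in the libraries labelled sgZbtb1 was 10 with all genes above 0, 12 by DESeq2, 13 with a mean above 10 TPM, 14 with a pseudocount of 0.1, 15 with other size factors, 17 by edgeR, 17 with the nearest gene of the list, 21 with the 6 libraries alone, and 9 to 15 with 1 library left out, the lowest without sgControl 3. Without the peaks that have a repeated stretch, a setting chosen after seeing the data, it stayed at 15. Bod1l, Tgfbr1, Pik3ip1 and Fam98c kept their call in 14 of 14 alternatives, and Otof and Tcf7l2 in 13 of 13. The single call in sgCbfa2t3 became 0 with all genes above 0 and 2 by edgeR or with size factors, and 0 to 2 with 1 library left out. With the 6 libraries alone it was also 1, but of another gene, since Selenot had an adjusted p of 0.0511. That in sgCbfa2t2 became 0 with all genes above 0, and 0 to 1 with 1 library left out. The 1 gene called there by DESeq2 was another, since Selenot was not among the 1291 genes with an adjusted p. That in sgLmo2 became 0 with the 6 libraries alone, DESeq2, edgeR or all genes above 0, and 0 to 1 with 1 library left out. The cause was not tested. With 1 library left out, log2 fold changes that were not called changed sign for Kti12 (-0.074 to 0.094), Aspscr1 (-0.42 to 0.080) and Atg9a (-0.65 to 0.33). A replicate block, with the replicate number as a term, gave 22 calls in sgZbtb1 and 2 in sgCbfa2t3, and 1 each in sgCbfa2t2 and sgLmo2. Libraries with the same number deviated together weakly (mean correlation 0.041, lowest -0.013, beside a mean of -0.020 for other numbers). Of the 15 libraries, 13 correlated best with their own number, so the numbers may mark pairs, which the labels do not say. The planned fit without pairs was kept, and the block is given beside it.

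Of the 329 peaks, 144 had a score of at least 30 and 305 had no Cbfa2t3 peak within 1 kb. The GGAAGT share rose from 13.7% to 21.6% in the whole peak and 23.1% in 400 bases, since longer windows hold more copies. The shares of 44.0% for the Runx core and 14.4% for TGGTGGTGG far from starts come from a split chosen after seeing the data. The peak lists give no depth, and genes under 3 reads cannot show a decrease.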
